A study of Homo sapiens with 2 samples.

Results

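Nuclear copies of mitochondrial genes are stretches of mitochondrial DNA that lie in the chromosomes of the nucleus, and 5 of them were examined here in CUT & Tag data of HOXA5. The 5 copies, MTND2P28, MTCO1P12, MTATP8P1, MTCYBP13 and MTRNR2L8, were selected on measured values of these libraries, namely the presence and strength of peaks within 1 kb of the gene, and they are 5 of 487 nuclear copies in the gene table, which lists 59675 genes off the mitochondrial genome. Their counts, pileups, folds and backgrounds therefore describe the choice, and no test was made on them. Within 1 kb of the 5 copies lay 6 of the 8043 peaks of the LV-HOXA5 list and 4 of the 635 peaks of the LV-HOXA5-NC list. The mitochondrial genome itself (chrM) held 7 and 6 peaks and served as the reference.

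The study asked where HOXA5, a homeobox transcription factor, binds in the genome of TFK-1, a human cell line of extrahepatic cholangiocarcinoma. LV-HOXA5 cells carried a lentivirus for Flag-tagged HOXA5, and LV-HOXA5-NC cells, the control, carried its negative control vector; both were kept as lines selected with puromycin. In CUT & Tag an antibody (here against Flag) brings a transposase to the protein in isolated nuclei, and the enzyme cuts and tags the DNA nearby. There was 1 library per condition, from 1000000 cells each, so that no value has a replicate and every comparison is one of 2 libraries, not of the conditions. With duplicates removed by the authors, 15778555 fragments remained for LV-HOXA5 and 1948734 for LV-HOXA5-NC, or 12.4% as many. Pileup is the number of fragments over the summit of a peak and is not scaled for depth; the scaled pileup used here is the pileup per 1000000 fragments of the library. Local background is the number of fragments that would lie over the summit at the density of its surroundings, and fold enrichment is the pileup relative to it. The surroundings are those of the same library and include the peak and its neighbours. Background and fold are therefore not independent of the pileup. All intervals are 95% intervals and cover counting error only.

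Mitochondrial DNA has entered the nuclear genome many times during evolution, and its copies there range from old, diverged pieces to blocks that still closely resemble the mitochondrial genome. The copies are annotated as pseudogenes of the respiratory chain subunits and ribosomal RNAs that mitochondria encode. A cell holds many mitochondrial genomes for each nuclear one, and short sequence reads from either source can be hard to tell apart where a copy is recent.

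On chromosome 1, 7 annotated copies lie side by side from 629062 to 634922 in the order of their parent genes, all of them inside the protein-coding gene LOC102724250; exons were not used here. The copies of this block examined here are MTND2P28 (chr1:629640-630686) and MTCO1P12 (chr1:631074-632616), copies of the genes for a subunit of complex I and for the catalytic subunit of cytochrome c oxidase, and MTATP8P1 (chr1:633535-633741), a copy of the gene for a small subunit of ATP synthase. MTCYBP13 (chr17:22519617-22520709) derives from the cytochrome b gene of complex III. MTRNR2L8 (chr11:10507887-10509176) belongs to the copies of the 16S ribosomal RNA gene, the gene in which the reading frame of the peptide humanin lies. Neither of the last 2 lies inside a protein-coding gene.

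None of the 5 copies matched an entry by symbol in the miRNA or promoter tables of RefSeq (GRCh38.p14), but by position 1 miRNA lies inside MTRNR2L8, and 1 miRNA and part of 1 promoter lie inside the chromosome 1 block. The mature miRNAs are shown with their seeds (bases 2 to 8) in capitals, since they are transcripts annotated near the peaks, 1 inside MTRNR2L8 and 1 between copies of the block. The promoter part is shown because it is the longest stretch of the chromosome 1 block that these tables hold; it covers 198 bases of MTND1P23, the copy of the ND1 gene next to MTND2P28. All 3 are on the minus strand and are written 5′ to 3′.
hsa-miR-12136: gAAAAAGUcauggaggcc
hsa-miR-4485-3p: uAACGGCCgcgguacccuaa
LOC101928626 promoter part: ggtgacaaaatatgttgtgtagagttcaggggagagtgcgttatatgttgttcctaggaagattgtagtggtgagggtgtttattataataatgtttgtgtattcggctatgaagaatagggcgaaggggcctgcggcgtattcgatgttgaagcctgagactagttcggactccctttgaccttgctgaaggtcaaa
The miRNAs do not share a seed. The first, at chr1:632668-632685, comes from the hairpin MIR12136 (chr1:632615-632685), which shares 2 bp with MTCO1P12 and ends 72 bp before MTCO2P12, the copy of the gene for subunit 2 of cytochrome c oxidase. In the order of the mitochondrial genome the hairpin falls at positions 7445 to 7515, over the transfer RNA gene TRNS1 (7446 to 7514). Its closest peaks lay 327 bp away in LV-HOXA5 and 322 bp away in the control. The other, at chr11:10508277-10508296, comes from the hairpin MIR4485 (chr11:10508270-10508326) inside MTRNR2L8, 914 bp from the LV-HOXA5 peak there and 1022 bp from the LV-HOXA5-NC peak. The promoter part (chr1:629062-629259) lay 392 bp and 387 bp from the nearest peaks. Its full window of 300 bases had no match to TAATTA, a core bound by many homeodomain proteins that reads the same on both strands, and 5 matches to the shorter ATTA on either strand, a motif added after seeing the data. Of 35116 promoter windows of the same length, 1699 (4.84%) held the former, which contains the latter, and 17637 (50.2%) the latter.

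In the LV-HOXA5 list, 5 of the 5 copies had a peak within 1 kb, and in the LV-HOXA5-NC list 3 of 5, namely MTND2P28, MTCO1P12 and MTRNR2L8. Over all nuclear genes the shares with a peak within 1 kb were 9.96% and 0.402%, and over protein-coding genes 19.5% and 0.594%; as the copies were selected on these peaks, nothing is read from the contrast. The farthest peak inside it lay 630 bp from MTCYBP13, with a pileup of 836 fragments. Just outside, the LV-HOXA5-NC peak closest to MTATP8P1 lay 1242 bp away, with a pileup of 549 fragments, and it was already counted at MTCO1P12. Only MTND2P28 and MTCO1P12 had a peak that shared a base with the gene.

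The peak at MTND2P28 lay near the start of the copy in both libraries, with its summit at the same base, 173 bp into the gene. In LV-HOXA5 (chr1:629651-630014) the pileup was 1256 fragments (exact Poisson interval 1187 to 1327), a scaled pileup of 79.6. In LV-HOXA5-NC (chr1:629646-630014) it was 888 fragments (831 to 948), a scaled pileup of 455.7. The raw pileup was thus lower in the control library and the scaled pileup 5.72 times as high (exact conditional interval 5.25 to 6.24). The fold enrichment over the local background was close in both, 6.46 in LV-HOXA5 and 7.11 in the control. The same peaks lay 211 and 206 bp from MTND1P23.

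MTCO1P12 had a peak over its start and another farther in. The one at the start reached to 89 bp from MTND2P28 and had pileups of 488 fragments (446 to 533) in LV-HOXA5 and 390 (352 to 431) in the control. The scaled pileups were 30.9 and 200.1, a control to HOXA5 ratio of 6.47 (5.65 to 7.41). The other peak (chr1:631894-632288 in LV-HOXA5), 943 bp into the gene at its summit, had pileups of 671 fragments (621 to 724) and 549 (504 to 597), scaled to 42.5 and 281.7, with a ratio of 6.62 (5.91 to 7.43). Its summit was the same base in both libraries, and it lay 469 and 464 bp from MTCO2P12. Within each library the order of the 3 peaks was the same, and their Poisson intervals did not overlap. Relative to the MTND2P28 peak, the pileup at the start of MTCO1P12 was 0.389 (0.349 to 0.432) in LV-HOXA5 and 0.439 (0.389 to 0.495) in the control. The peak farther into MTCO1P12 stood at 0.534 (0.486 to 0.587) and 0.618 (0.555 to 0.688) of it. These 2 relative heights had overlapping intervals in the 2 libraries. The intervals cover counting error only, and neither a difference nor a likeness of the conditions is read from them. A further LV-HOXA5 peak of the block, by MTATP8P1, had no listed control counterpart, so that the block as a whole was not compared.

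MTATP8P1 and MTCYBP13 were the copies with an LV-HOXA5 peak alone. The peak by MTATP8P1 (chr1:633893-634173) lay 152 bp from it, inside MTATP6P1, a copy of the neighbouring ATP synthase gene, and 203 bp from MTCO3P12, a copy of the gene for subunit 3 of cytochrome c oxidase. Its pileup of 1513 fragments (1438 to 1591), scaled to 95.9, was rank 2 of the 8036 nuclear peaks of the LV-HOXA5 list and 1.20 times (1.12 to 1.30) that of the MTND2P28 peak. Its fold enrichment was 7.72. The peak by MTCYBP13 (chr17:22521339-22521592) had a pileup of 836 fragments (780 to 895), scaled to 53.0, which was rank 8, and a fold enrichment of 35.6, the highest of the whole list. No LV-HOXA5-NC peak lay closer to MTCYBP13 than 495552 bp.

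MTRNR2L8 had its peak just beyond the gene in both libraries. In LV-HOXA5 (chr11:10509240-10509992) it lay 64 bp away with a pileup of 175 fragments (150.0 to 203), scaled to 11.1, and in LV-HOXA5-NC (chr11:10509348-10509992) 172 bp away with 132 fragments (110.4 to 157), scaled to 67.7. The ratio of the scaled pileups was 6.11 (4.83 to 7.70). The fold enrichments were 13.1 and 14.5, and the summits differed by 1 bp.

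**Figure D1:**
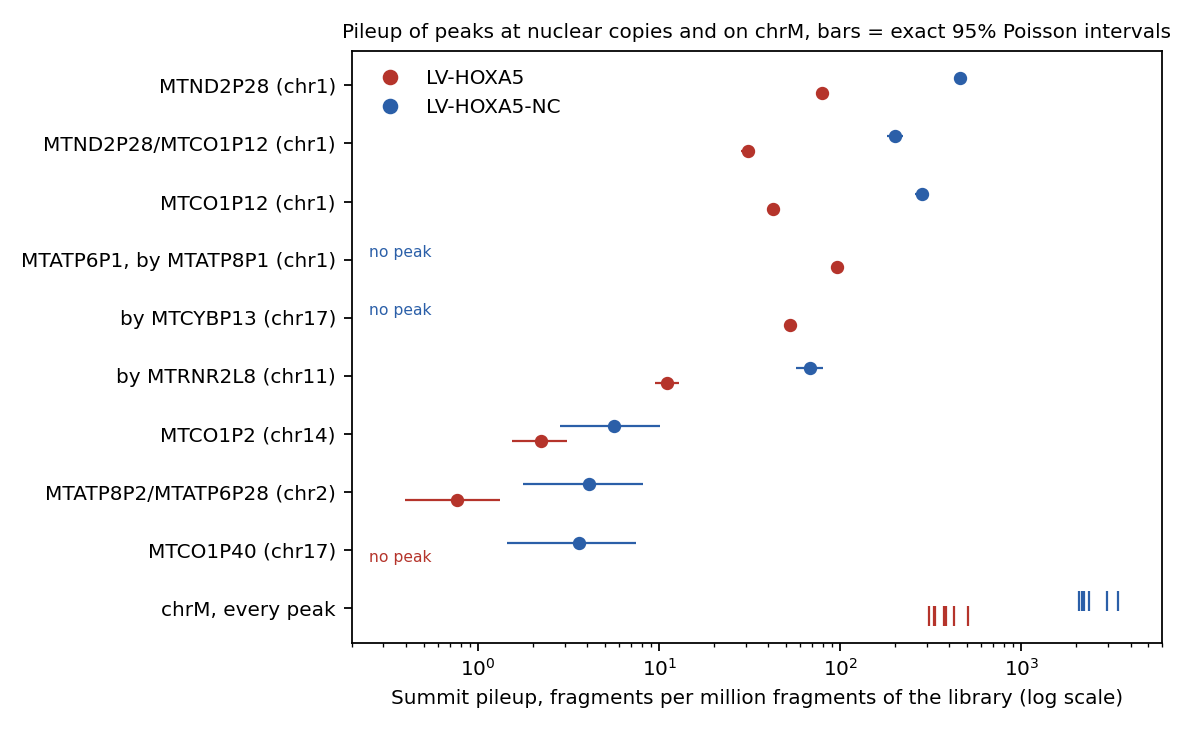
Summit pileup per 1000000 fragments of the library (log scale) at nuclear copies with a peak within 1 kb, and at every chrM peak, in LV-HOXA5 (red) and LV-HOXA5-NC (blue); bars are exact 95% Poisson intervals and cover counting error only. At each copy shown in both libraries the control point lies to the right, by 5.72 times at MTND2P28 and 6.11 times by MTRNR2L8, and the chrM marks are shifted in the same direction; with the highest chrM peak as the scale these ratios are 0.855 and 0.912.

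On the scale of the library totals, the higher pileup in LV-HOXA5-NC was not limited to the copies. Of the 8036 nuclear LV-HOXA5 peaks, 438 (5.45%) overlapped a control peak by 1 bp or more, and of the 6 at the 5 copies 4 did. All 6 had a pileup of at least 100 fragments. Among nuclear peaks of that pileup, 155 of the 251 at least as long as the shortest control peak (61.8%) overlapped one. Of the 8 shorter ones 0 did. The 4 of 6 is therefore not read as a trait of the copies. Leaving out the peaks at nuclear copies, the ratio of scaled pileups of the 431 other pairs had a median of 3.67 and a 10th to 90th percentile range of 1.65 to 6.07, and 81.4% of them had a ratio of at least 2. A higher ratio than that of the MTND2P28 peak was found in 54 of these pairs, and a higher ratio than that of the peak farther into MTCO1P12, the highest of the 4, in 26. Of the 4 ratios at the copies, 3 lay above the 90th percentile and 1 below it, and all 4 lay inside the full range of 0.555 to 15.6. Scaled by the local background instead of the library total, the control to HOXA5 ratios of the 3 chromosome 1 peaks were 1.10, 1.25 and 1.28 and that of the MTRNR2L8 peak 1.11, against a median of 0.886 over the other pairs. With the highest chrM peak of each list as the scale, added after seeing the data, the ratio was 0.855 at MTND2P28 and 0.912 by MTRNR2L8, so that the direction turned and is set by the scale.

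The local background at the chromosome 1 block was the highest of all nuclear peaks in both lists. It ran from 193.7 to 195.2 fragments at the 4 LV-HOXA5 peaks, which is 135 to 136 times the genome-wide level of 1.44 fragments. In LV-HOXA5-NC it ran from 124.1 to 124.4 fragments at the 3 peaks, or 607 to 609 times the level of 0.204. The next nuclear background below the block was 190.4 fragments, on chromosome 16, in LV-HOXA5, but 71.5, on chromosome 5, in LV-HOXA5-NC. Per 1000000 fragments the background of the block was 12.3 to 12.4 and, in the control, 63.7 to 63.8. The window of 10 kb for this background takes in the peaks of the block themselves, so that the values of the block largely repeat 1 count. Beside such a background a high pileup gave only a moderate fold. The MTND2P28 peak was rank 3 by pileup among nuclear LV-HOXA5 peaks and rank 1321 by fold, and in LV-HOXA5-NC it was rank 1 of 629 by pileup and rank 194 by fold. The 3 LV-HOXA5-NC peaks of the block were ranks 1, 2 and 4 by pileup.

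The copies on the other chromosomes stood on lower backgrounds. By MTCYBP13 the local background was 22.5 fragments, and by MTRNR2L8 it was 12.5 in LV-HOXA5 and 8.19 in the control. The median over all peaks was 2.55 and 1.28 fragments. Median pileups were 17 and 16 fragments. The smallest peak at the 5 copies, that by MTRNR2L8, lay above both, but the copies were selected on peak strength and nothing is read from this.

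**Figure D2:**
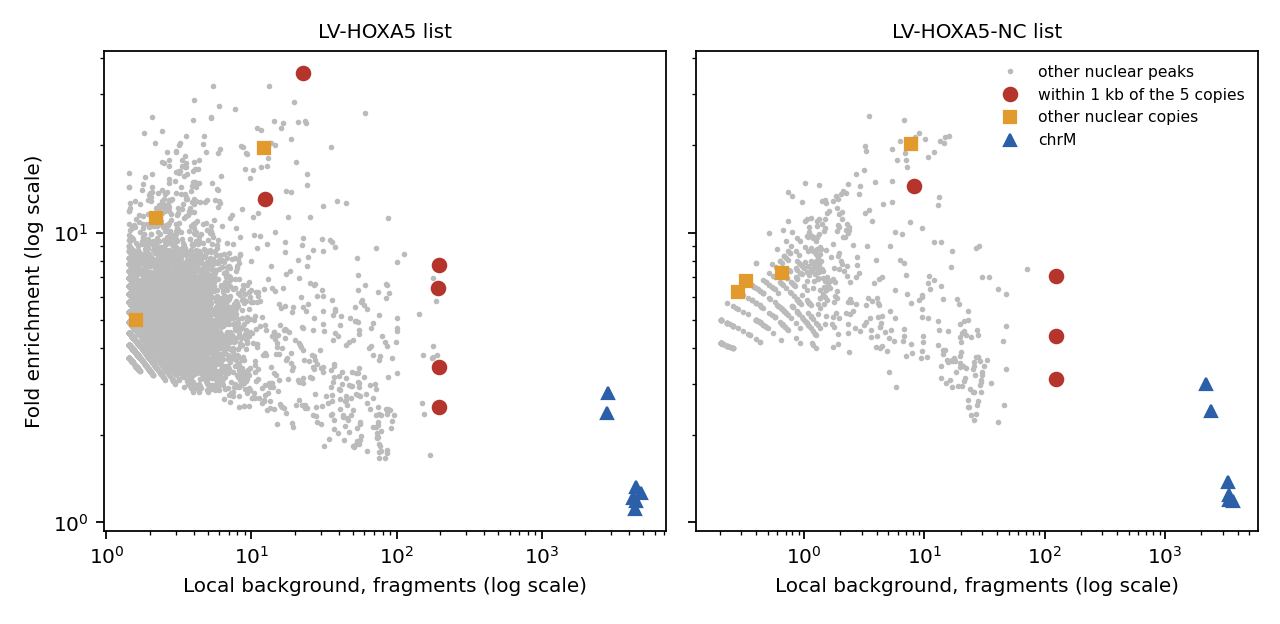
Fold enrichment against local background in fragments (both log scales) for every peak of the LV-HOXA5 list (left) and the LV-HOXA5-NC list (right), with the peaks within 1 kb of the 5 copies in red, other nuclear copies in orange and chrM in blue. The chromosome 1 peaks lie at the right edge of the nuclear peaks, at about 194 and 124 fragments, between them and chrM, and the peak by MTCYBP13 is the topmost point on the left.

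On chrM the pileups were several times those of any nuclear peak and the folds low. In LV-HOXA5 the 7 peaks had pileups of 4872 to 8023 fragments, folds of 1.11 to 2.80 and local backgrounds of 2813 to 4818 fragments. In LV-HOXA5-NC the 6 peaks had pileups of 4051 to 6634 fragments, folds of 1.19 to 3.01 and backgrounds of 2204 to 3653. The highest peak of each list had its summit at position 16228, outside every annotated gene and beyond cytochrome b, and ran over ND5, ND6 and CYTB. The peak next in height had its summit at position 1334 in the 12S ribosomal RNA gene RNR1 in both libraries and ran over RNR1, RNR2 and ND1. Other peaks lay over COX1, over COX2 and ATP8, over ATP6 and COX3, and over ND4. A peak inside ND2 (4918 to 5336) was listed for LV-HOXA5 alone, at 4872 fragments and a fold of 1.11.

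Per 1000000 fragments, the highest chrM peak reached 508 in LV-HOXA5 and 3404 in the control, a ratio of 6.70 (6.48 to 6.92). The control peak in this ratio also reached over part of the LV-HOXA5 peak at ND4 and ND5, so that the regions were divided differently. The 4 peaks with a single counterpart in both lists had ratios of 6.20 to 6.97. The 4 peaks at the copies with a counterpart in both lists had ratios of 5.72 to 6.62. At MTND2P28 the interval (5.25 to 6.24) did not overlap that of the highest chrM peak. Nor did it overlap those of the chrM peaks at RNR1 (6.73 to 7.22) and COX1 (6.28 to 6.81). It did overlap those of the chrM peaks at COX2 (5.95 to 6.46) and COX3 (6.05 to 6.54). These intervals cover counting error only, and neither library has a replicate. As the copies were also selected on peak strength, neither a difference from a chrM peak nor a likeness to it is read from these overlaps. Whether fragments of the mitochondrial genome were placed at the copies was not tested. Measured against the highest chrM peak of the same library, the MTND2P28 peak had 15.7% (14.7% to 16.6%) of its pileup in LV-HOXA5 and 13.4% (12.5% to 14.4%) in the control, intervals that did not overlap. No other chrM peak was used as the reference for such shares, and the separation holds for this reference only. The intervals of the shares also cover counting error only, and no difference between the conditions is read from them. The shares were 6.08% and 5.88% at the start of MTCO1P12, 8.36% and 8.28% farther into it, and 2.18% and 1.99% by MTRNR2L8, with overlapping intervals at each of these 3. The LV-HOXA5 peaks by MTATP8P1 and MTCYBP13 had 18.9% and 10.4%.

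The block on chromosome 1 follows the mitochondrial genome closely enough to set both side by side. From ND2 to COX3, the starts of 6 copies and of their parent genes differed by an offset that varied by 2 bp. Placed with the offset of ND2, the LV-HOXA5 peak at MTND2P28 falls at mitochondrial positions 4481 to 4844, in the first part of ND2. That at the start of MTCO1P12 falls at 5605 to 6181, the one farther into it at 6724 to 7118, and the one in MTATP6P1 at 8723 to 9003. The listed chrM peaks did not take the same places. A stretch of chrM without a listed peak was still not free of fragments. The local backgrounds at the chrM peaks ran from 2813 to 4818 fragments in LV-HOXA5 and from 2204 to 3653 in LV-HOXA5-NC. The places of listed peaks therefore cannot show whether the fragments over chrM and over the block are spread alike, which was not tested. The MTND2P28 peak shared no base with a chrM peak in either library, and the chrM peak closest to its summit lay 275 bp away in LV-HOXA5 and 527 bp away in the control. Of the 4 LV-HOXA5 summits 1 fell inside a chrM peak, that farther into MTCO1P12, and of the 3 LV-HOXA5-NC summits 1 did, again that one. Even there the closest chrM summits were 592 and 562 bp away. In bases, 350 of 1617 (21.6%) of the LV-HOXA5 peaks of the block and 328 of 1283 (25.6%) of the LV-HOXA5-NC peaks lay over chrM peaks, while chrM peaks covered 45.2% and 40.8% of the corresponding stretch of 5283 bp.

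**Figure D3:**
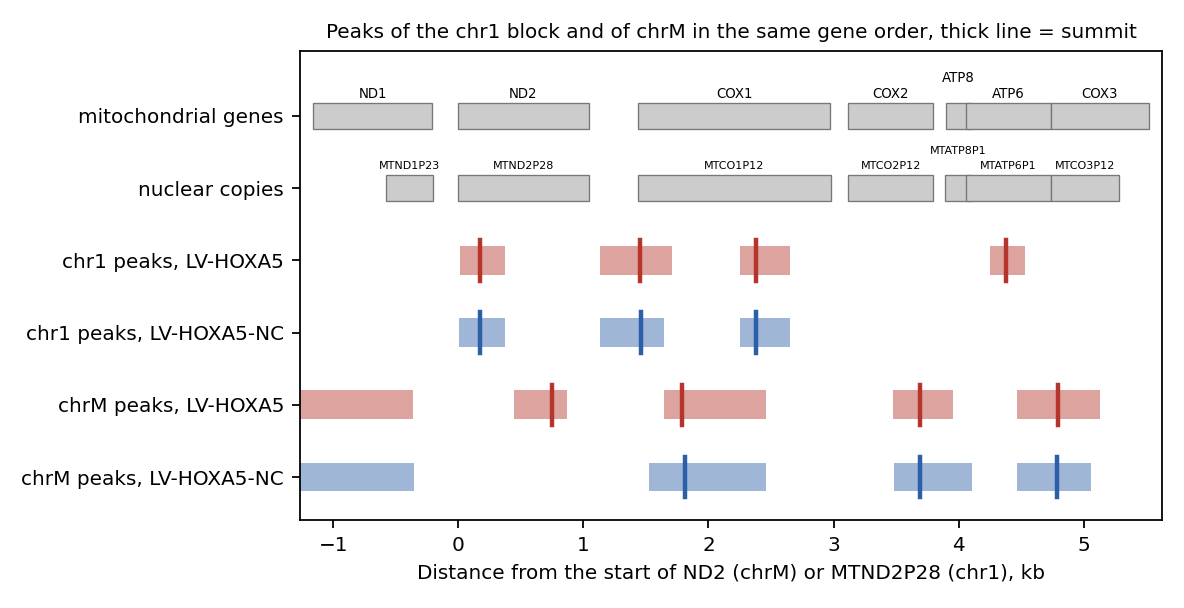
Mitochondrial genes, their copies on chromosome 1 and the peaks over both, drawn to 1 scale as distance in kb from the start of ND2 or MTND2P28; shaded bars are peaks, thick lines summits, red LV-HOXA5 and blue LV-HOXA5-NC. The chromosome 1 peaks take the same places in both libraries except for the LV-HOXA5 peak in MTATP6P1, and only 1 of their summits per library stands over a chrM peak.

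The peak by MTCYBP13 lay in the gap of 2705 bp between MTCYBP13 and MTRNR2L1, inside a block of 12 annotated genes of mitochondrial origin (chr17:22519195-22532773). MTRNR2L1, a copy of the 16S gene, was 1823 bp from it and had no peak within 1 kb in either list. In the mitochondrial genome the corresponding gap holds the noncoding control region, where replication starts, and the 12S gene. The genome is a circle, and its reference is written as a line that begins inside this region. Counted back from MTND1P15, the copy of ND1 in the same block, the peak falls at positions -90 to 163 with its summit at -26, so that 91 of its 254 bases lie before the first base of the chrM reference. Counted forward from the end of MTCYBP13, it falls at 16517 to 16770. The chrM peaks stopped at 16498 and began at 49 in LV-HOXA5 and at 52 in the control, so that none of them reached the junction that the chromosome 17 peak spans. Overlap was counted on the linear reference, without joining its ends. So counted, 115 of the 254 bases (45.3%) of this peak lay over LV-HOXA5 chrM peaks with the placement from MTND1P15. Bases placed before the first base of the reference could not count. The placement from MTCYBP13 runs past the end of the reference, and the overlap of that part was not counted. The part that the linear reference has in this was not tested.

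Length set the 2 peaks without a control counterpart apart from the others. The LV-HOXA5 peak by MTATP8P1 was 281 bp long and that by MTCYBP13 254 bp, and the shortest peak of the LV-HOXA5-NC list was 283 bp. For LV-HOXA5 and the control in turn, the shortest peak equalled the fragment length that the peak caller had taken for the library, 246 bp and 283 bp. The 4 LV-HOXA5 peaks at the copies with a control counterpart were 364 to 753 bp long. Of the 25 nuclear LV-HOXA5 peaks of highest pileup, at 548 fragments or more, 23 overlapped an LV-HOXA5-NC peak, and these 23 were at least 364 bp long. The 2 that did not were the peaks by MTATP8P1 and MTCYBP13. Among nuclear LV-HOXA5 peaks with a pileup of at least 100 fragments, 155 of the 251 that were at least as long as the shortest control peak (61.8%) overlapped one, and 0 of the 8 shorter ones did. The 8 include the 2 peaks at the copies. Over all nuclear LV-HOXA5 peaks, at any pileup, 425 of the 6737 longer ones (6.31%) and 13 of the 1299 shorter ones (1.00%) had a control counterpart, so that a peak below this length could have one. Limiting the LV-HOXA5 list to that length, an alternative chosen after seeing the data, takes out these 2 peaks and leaves 3 of the 5 copies with a peak. The match with LV-HOXA5-NC was fixed by that choice, and nothing is read from it. Whether length has a part in the missing counterparts was not tested. The pileup of LV-HOXA5-NC at these 2 places is not given in a peak list, so that a difference between the libraries there was not tested.

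**Figure D4:**
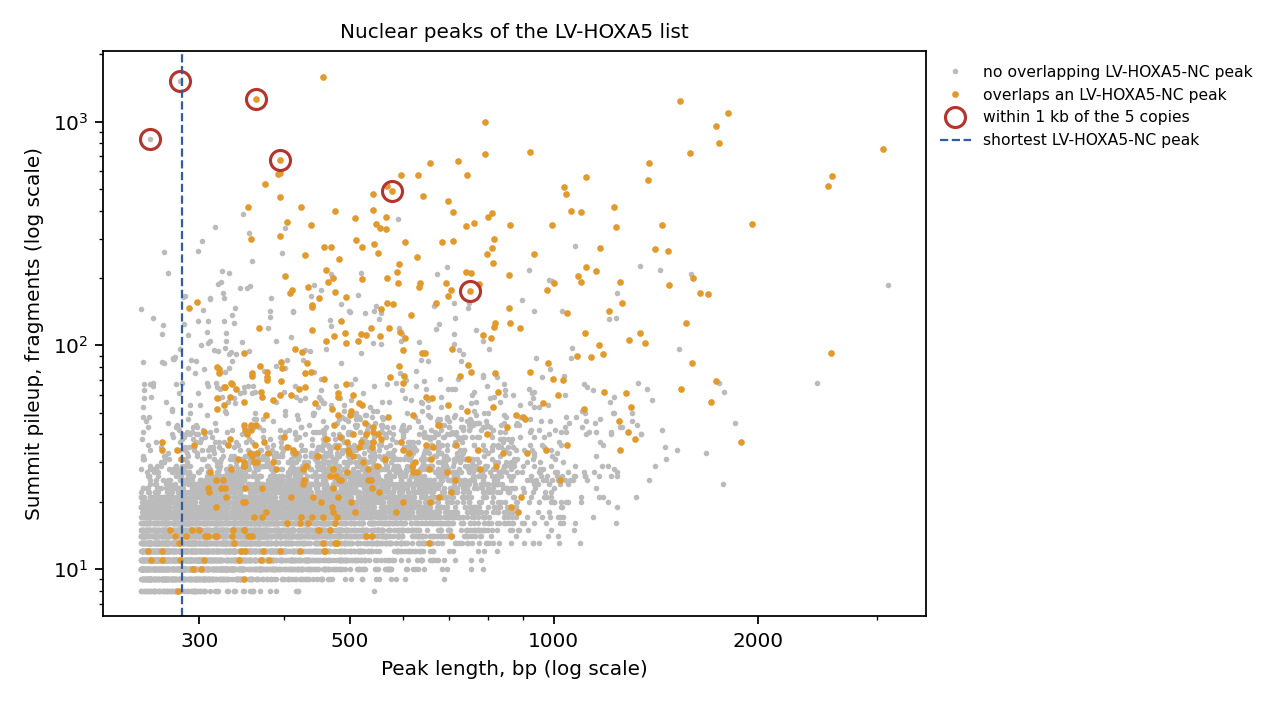
Length in bp against summit pileup in fragments (both log scales) of the 8036 nuclear LV-HOXA5 peaks; orange points overlap an LV-HOXA5-NC peak, red circles are within 1 kb of the 5 copies, and the dashed line is the shortest LV-HOXA5-NC peak, 283 bp. The 2 circled points left of the line, at 281 and 254 bp, are the peaks by MTATP8P1 and MTCYBP13 and have no control counterpart.

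Most nuclear copies had no peak. Of the 487 copies, the 5 included, 13 (2.67%, Clopper-Pearson interval 1.43% to 4.52%) had an LV-HOXA5 peak within 1 kb and 10 (2.05%, 0.989% to 3.74%) an LV-HOXA5-NC peak, and 9 had both. Over all 17051 pseudogenes the shares were 1.89% and 0.188%. Without the 5 copies, 8 of 482 had an LV-HOXA5 peak and 7 an LV-HOXA5-NC peak. Of these, MTND1P23 and MTCO2P12 shared the chromosome 1 peaks described above in both lists, and MTATP6P1 and MTCO3P12 in the LV-HOXA5 list alone. None of the 25 copies of ND3, 31 of ND4L, 40 of ND4, 45 of ND5 and 36 of ND6 had a peak in either list. The same was true of 21 nuclear genes of mitochondrial transfer RNA type, whose symbols begin with NMTR.

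Of the other copies, those at 3 further loci are given here. A further copy, with a peak in both lists, is in the totals only. Its pileups were higher in both lists than those at these loci and those by MTRNR2L8. MTCO1P2 (chr14:32484093-32485122), inside AKAP6, had 35 fragments (24.4 to 48.7) in LV-HOXA5 and 11 (5.49 to 19.7) in the control, with a ratio of scaled pileups of 2.54 (1.17 to 5.13). MTATP8P2 and MTATP6P28, which adjoin on chromosome 2 inside RGPD2, shared a peak of 12 fragments (6.20 to 21.0) and 8 fragments (3.45 to 15.8), with a ratio of 5.40 (1.91 to 14.4). MTCO1P40 (chr17:53105734-53106358) had an LV-HOXA5-NC peak alone, of 7 fragments (2.81 to 14.4).

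Genes of mitochondrial proteins that lie in the nuclear genome had shares with a peak near those of all protein-coding genes. Of 170 genes of the respiratory chain complexes, ATP synthase and the mitochondrial ribosome, taken by symbol and with assembly factors such as NDUFAF8 included, 38 (22.4%, 16.3% to 29.4%) had an LV-HOXA5 peak within 1 kb, beside 19.5% of all protein-coding genes. They comprised 11 of 45 NDUF genes, 2 of 9 UQCR, 3 of 17 COX, 4 of 18 ATP5, 8 of 49 MRPL and 10 of 28 MRPS genes, and 0 of 4 SDH genes. None of the 170 (0 to 2.15%) had an LV-HOXA5-NC peak, beside 0.594% of protein-coding genes. Their LV-HOXA5 peaks had a median pileup of 17 fragments, and the highest, at MRPS12 (named after its value was seen), had 40. As the 5 copies were selected on the strength of their peaks, their pileups are not compared with these.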

How the data were processed

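Anti-Flag CUT & Tag libraries of TFK-1 cells, 1 of LV-HOXA5 and 1 of LV-HOXA5-NC, were grouped by the sample labels. The submitters' processing notes name fastp, Bowtie2, deepTools, MACS2, ChIPseeker and GRCh38; how reads with several matches were treated is not given in the sources used here. The authors removed duplicates and called peaks per library with MACS 2.2.7.1 (paired-end fragments, q-value 0.05, effective genome size 2700000000 bp, window of 10 kb for the local background, no control library). The deposited pileup is a signal in fragments, not scaled for depth. The deposited fold is a ratio to the local background. The deposited −log10 p-value and q-value were used for a stricter threshold and for a check.

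Local background was computed as (pileup + 1) / fold − 1; as a check, its Poisson tail was compared with the −log10 p-values in the deposited lists, with a difference under 0.01 for 8017 of 8043 and 630 of 635 peaks. Genes were those of RefSeq GRCh38.p14, without strand or exons. Copies and contrast genes were listed by symbol, and the genes named are the 5 copies, every other copy with a peak within 1 kb (1, with a peak in both lists, is not reported here by itself and is in the totals only) and the genes under chrM peaks. The members and lists were chosen with earlier results of these data known. Functions were tested on simulated data. Python 3.11.15, NumPy 2.4.6, SciPy 1.17.1, pandas 2.3.3 and Matplotlib 3.10.9 were used. Alternatives changed the distance, q-value, peak length, overlap and scale.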

Additional observations from a re-analysis of the deposited data

How the results depend on the processing

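Of 30 comparisons with an alternative, 12 stayed within the limit set for the result (1.5 times for a count, the 95% interval for a ratio or share), 14 did not, and 4 turned in direction. With a shared base required in place of 1 kb, 2 of the 5 copies had an LV-HOXA5 peak and 2 an LV-HOXA5-NC peak. With 3 kb these counts were 5 and 4. Of all 487 copies, 6 had an LV-HOXA5 and 6 an LV-HOXA5-NC peak with a shared base, and 23 and 16 did with 3 kb. With peaks at least as long as the shortest control peak, 3 of the 5 copies had an LV-HOXA5 peak, a result fixed by a length chosen after seeing the data. For the chromosome 1 block the MTND2P28 peak was used, and its control to HOXA5 ratio (5.72) became 1.10 with the local background as the scale. The other pairs of the block had ratios of 6.47 and 6.62, and 1.25 and 1.28 on that scale. The MTND2P28 ratio became 1.56 with the median of the peak pairs away from nuclear copies. It became 1.00 with the summed chrM pileup (7 peaks in LV-HOXA5, 6 in LV-HOXA5-NC). The sum over all peaks of the block gave 3.77. This sum covers 4 peaks (1617 bp, mean pileup 982) in LV-HOXA5 and 3 (1283 bp, mean 609) in LV-HOXA5-NC. For MTRNR2L8 (6.11) the first 3 scales gave 1.11, 1.66 and 1.07. With the mean chrM pileup or the highest chrM peak as the scale, both chosen after seeing the data, the ratio turned in direction. It was 0.861 and 0.855 at MTND2P28 and 0.919 and 0.912 at MTRNR2L8. For chrM, the sum over peaks (11553 bp, mean 6012, and 11083 bp, mean 4934) gave 5.70 in place of 6.70. The size and direction of the ratio thus depend on the scale, which 1 library per condition cannot settle; the cause was not tested. A q-value of 0.001 or less and other overlap rules left the counts and shares at the 5 copies as they were. At MTCO1P2, MTATP8P2 and MTCO1P40 the LV-HOXA5-NC pileups were 7 to 11 fragments, with wide counting intervals.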
